A study of Mus musculus with 2 samples.

Results

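The 35 genes described here are those of the unfolded protein response and the heat shock response, out of 55536 mouse genes in the deposited tables. They were picked by symbol, and no measured value enters that rule, although the list was chosen with earlier results of these data known. Each symbol matched 1 gene identifier. They fall into 3 roles: 14 chaperones and folding enzymes of the endoplasmic reticulum (ER), 10 sensors, transcription factors and degradation factors of the unfolded protein response (UPR), and 11 genes of the cytosolic and mitochondrial heat shock response.

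The unfolded protein response restores protein folding in the ER through the sensors IRE1 (gene Ern1), PERK (Eif2ak3) and ATF6. Their targets include ER chaperones, folding enzymes and the machinery that returns misfolded proteins to the cytosol for degradation. The heat shock response, driven by the transcription factor HSF1, raises chaperones of the cytosol and the mitochondrial chaperonins. Macrophages are secretory immune cells, and signalling through TLR4, the receptor of lipid A, is known to engage parts of the UPR.

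Total RNA after ribosomal RNA depletion was sequenced from the nucleoplasmic fraction of macrophages grown from C57BL/6J mouse bone marrow and given lipid A at 100 ng/ml for 20 min. There was 1 group with 2 libraries, numbered as biological replicates: the input was 1 µg of RNA for replicate 1 and 500 ng for replicate 2, so that replicate and RNA input cannot be told apart. The labels tie both to 1 donor identifier and do not say whether they came from separate mice or cultures. With no untreated, whole-cell or cytoplasmic library analysed here, nothing below measures a response to lipid A or an enrichment in the nucleus.

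The libraries held 18194818 and 18667509 expected counts, of which 3.19% and 10.5% were mitochondrial. All 12 macrophage markers reached 1 TPM in each library (a level per transcript length, scaled to the same total in each table), led by Gpnmb. No neutrophil, B cell or stromal marker reached 1 TPM in both libraries, with summed levels of 3.59 and 5.12, 0.42 and 0.61, and 0.12 and 0.11 TPM. Of the T and NK cell markers 1 of 6 did so (Cd4, 33.7 and 32.5 TPM), of the dendritic cell markers 1 of 5 (Zbtb46) and of the erythroid markers 1 of 5 (Alas2). Over all genes, the median log2 ratio of TPM between replicate 2 and replicate 1 was -0.35, so differences between the libraries are given from scaled counts unless TPM is named.

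The start-site sequences of some of these genes hold exact matches to control elements. RefSeq promoter windows of 300 bases (250 before and 50 after the start site, build GRCm38.p6) were found for 28 of the 35 genes. They were searched on both strands for exact matches, so an element with other letters or outside the window would be missed. The ER stress response element (ERSE, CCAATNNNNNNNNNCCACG), at which ATF6 and XBP1 act together with NF-Y, was present in 7 of the 28 genes: Hspa5, Hsp90b1, Calr, Canx, Pdia6, Dnajc3 and Creld2. Of all 27025 genes with a promoter window (32851 windows), 37 held it, a share of 0.137%. The windows below show each match in capitals with 10 bases on either side, printed 5′ to 3′ on the strand of the gene. In Calr, Creld2 and the second Hsp90b1 match the element lies on the opposite strand and is read as its reverse complement.
Hspa5, chr2:34772015-34772053: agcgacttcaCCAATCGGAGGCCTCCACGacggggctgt
Hsp90b1, chr10:86705628-86705666: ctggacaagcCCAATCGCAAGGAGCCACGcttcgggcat
Hsp90b1, chr10:86705523-86705561: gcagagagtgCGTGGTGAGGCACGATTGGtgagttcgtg
Calr, chr8:84847065-84847103: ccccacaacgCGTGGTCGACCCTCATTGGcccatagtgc
Canx, chr11:50325790-50325828: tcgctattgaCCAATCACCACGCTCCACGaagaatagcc
Pdia6, chr12:17266481-17266519: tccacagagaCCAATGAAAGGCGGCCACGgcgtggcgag
Dnajc3, chr14:118937817-118937855: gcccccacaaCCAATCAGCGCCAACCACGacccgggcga
Creld2, chr15:88819510-88819548: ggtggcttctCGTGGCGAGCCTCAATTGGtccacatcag
The 8 matches had their outermost bases between 47 bases (Hspa5) and 212 bases (the first Hsp90b1 match) before the start site.

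A variant of the element, ERSE-II (ATTGGNCCACG), matched in Dnajb11 and Herpud1, against 12 of all 27025 genes with a window (0.0444%). In Herpud1 it lay 52 to 42 bases before the start site, and in Dnajb11 8 to 18 bases after it. Herpud1 also held the core of the amino acid response element bound by ATF4 dimers (TTGCATCA) 112 to 105 bases before the start site. That match was found in 1.03% of all genes with a window. The core of the UPR element (TGACGTGG) was found in 0 of the 28 genes and in 0.714% of all genes with a window.
Herpud1 ERSE-II, chr8:94386367-94386397: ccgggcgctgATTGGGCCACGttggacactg
Herpud1 ATF4 element core, chr8:94386307-94386334: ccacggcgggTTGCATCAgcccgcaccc
Dnajb11 ERSE-II, chr16:22857852-22857862: ATTGGCCCACG

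The heat shock element bound by HSF1 (GAANNTTCNNGAA) matched in Hspd1, Hspe1 and Hsph1, against 179 of all 27025 genes with a window (0.662%). Hspd1 and Hspe1 encode the mitochondrial chaperonin and its lid and lie head to head on chromosome 1. They share 1 stretch of 18 bases, chr1:55088059-55088076, in which 2 matches overlap. It is printed from both genes' strands, and each line is the reverse complement of the other. In Hsph1 the element lay after the start site, at chr5:149636288-149636300. No exact match stood in the windows of Hspa1a and Hspa1b, which says only that these letters were not in those windows.
Hspd1, chr1:55088049-55088086: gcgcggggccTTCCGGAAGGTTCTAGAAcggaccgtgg
Hspe1, chr1:55088049-55088086: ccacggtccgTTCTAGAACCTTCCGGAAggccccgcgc
Hsph1, chr5:149636288-149636300: TTCTGGAAAGTTC

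The 9 genes with an ERSE or ERSE-II match had median levels of 62.97 and 51.6 TPM in replicates 1 and 2. The 19 matched genes without one had medians of 14.8 and 13.9 TPM. By mean TPM, the group without a match held both the highest gene of the module, Ppp1r15a, and the lowest, Hspa1b, so the ranges overlapped fully. None of the 9 genes was of the heat shock role, whereas Hspa1a, Hspa1b, Hsph1, Dnaja1, Dnajb1, Hspd1 and Hspe1 were in the group without a match. Match and role are therefore not separated here. For the heat shock element described above the order was the other way. The 3 genes with a match had medians of 6.29 and 7.71 TPM, and the 25 matched genes without one 33.5 and 26.3 TPM. These differences are descriptions without a test.

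Almost the whole module was measured in the nucleoplasm. A level of 1 TPM was reached in each library by 33 of the 35 genes (94.3%), against 44.9% of 22015 nuclear-encoded protein-coding genes. A level of 10 TPM was reached by 25 of the 35 (71.4%), against 19.6%, and 100 TPM by 6 (17.1%), against 1.33%. The median level was 25.3 ± 2.13 TPM (SD, n = 2). Together the genes took 0.561% and 0.546% of all counts. In these bulk samples, fewer expressing cells and less RNA per cell cannot be told apart. The 6 genes that reached 100 TPM in each library were the phosphatase subunit Ppp1r15a, the ER chaperones Calr, Hspa5, Hsp90b1 and Canx, and the cytosolic chaperone Hspa8.

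**Figure D1:**
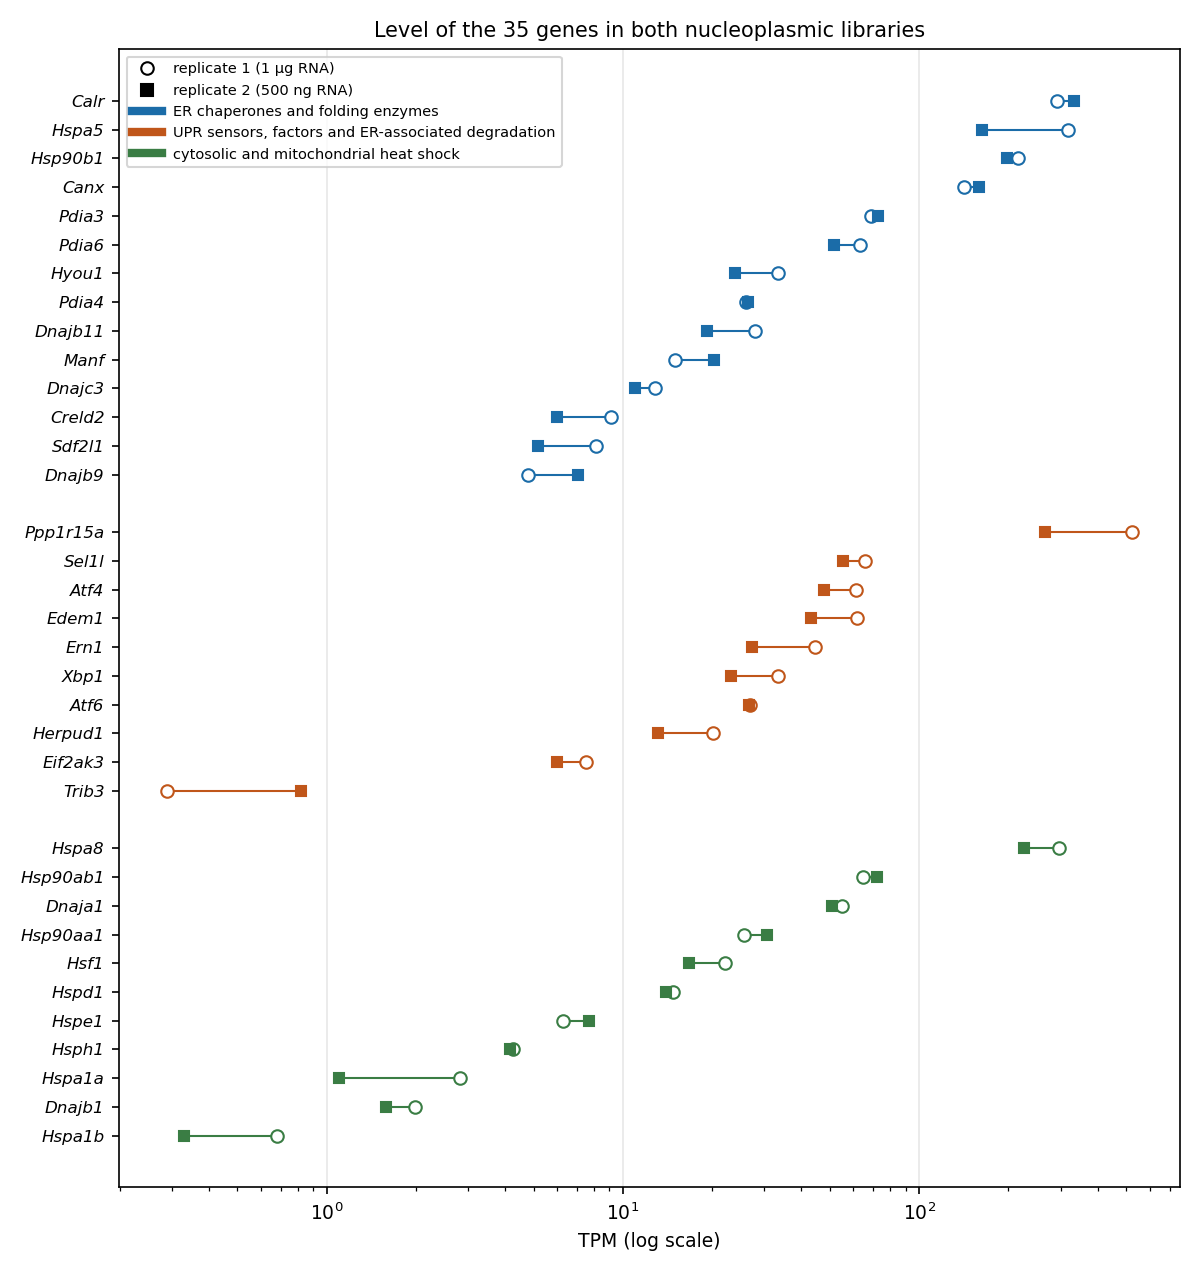
TPM of each of the 35 genes (log axis) in replicate 1 (open circles) and replicate 2 (filled squares), joined by a line and grouped by role; no error bars are drawn because each point is 1 library. By their mean, levels run from Hspa1b, at 0.68 and 0.33 TPM, to Ppp1r15a, at 521 and 265 TPM.

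The ER chaperones were the most uniformly present role, where all 14 genes reached 1 TPM in each library and the median was 27.8 ± 3.86 TPM (SD, n = 2). Calr, the calcium-binding lectin chaperone calreticulin, was at 291 and 333 TPM in replicates 1 and 2. Hspa5, the ER HSP70 also called BiP that holds the UPR sensors inactive, was at 319 and 164 TPM. Hsp90b1, the ER form of HSP90, was at 215 and 198 TPM. Canx, the membrane-bound partner of calreticulin in the lectin cycle, was at 142 and 159 TPM. Both Canx values lay below both Hsp90b1 values, whereas Calr, Hspa5 and Hsp90b1 overlapped with a neighbour in the order of levels. In replicate 1 Hspa5 had the higher level of Hspa5 and Calr, and in replicate 2 Calr did.

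Protein disulfide isomerases, which form and rearrange disulfide bonds, followed below. Pdia3, which works with the lectin chaperones, was at 69.0 and 72.4 TPM. Pdia6 was at 62.97 and 51.6 TPM. Pdia4 was at 26.1 and 26.3 TPM, a smaller difference between libraries than for most of the role.

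Cofactors of Hspa5 covered a wide range. Hyou1, an ER nucleotide exchange factor and chaperone, was at 33.3 and 23.8 TPM. Of the J-domain partners, Dnajb11 was at 27.8 and 19.3 TPM, Dnajc3 at 12.8 and 11.0 TPM and Dnajb9 at 4.79 and 7.04 TPM. Dnajb9 was thus the lowest gene of the role by its mean, and on this scale was higher in replicate 2, whereas Dnajb11 and Dnajc3 were lower. In scaled counts Dnajc3 was higher in replicate 2 instead, by a log2 ratio of 0.13 (0.01 to 0.25). The secreted or luminal UPR targets Manf, Creld2 and Sdf2l1 were at 15.0 and 20.3, 9.09 and 5.98, and 8.12 and 5.17 TPM.

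Of the 10 UPR sensors and factors, 9 reached 1 TPM in each library, with a median of 33.0 ± 8.52 TPM (SD, n = 2). Ppp1r15a (GADD34, chr7:45522916-45526268, mm10) is the regulatory subunit that brings protein phosphatase 1 to eIF2α. By its mean it was the highest gene of the module, at 521 and 265 TPM. Its rank was 39 and 57 of 22015 nuclear-encoded protein-coding genes. In replicate 2 Calr was higher, at 333 TPM, and in the second quantification Calr had the higher mean, 182 against 152 TPM. Ppp1r15a is also known as an immediate response gene of stimulated macrophages. Its counts were 17964 and 11713.

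The sensors themselves were lower. Ern1 was at 44.5 and 27.2 TPM, Atf6 at 26.8 and 26.7 TPM and Eif2ak3 at 7.50 and 5.97 TPM. Eif2ak3 was the lowest of the 3 sensors in both libraries, and its values overlapped with neither of the others. In replicate 2 Ern1 and Atf6 were closer to each other than the values of Ern1 were between the libraries.

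Among the transcription factors, Atf4, whose translation rises when eIF2α is phosphorylated, was at 61.1 and 47.8 TPM. Xbp1, whose mRNA IRE1 splices in the cytoplasm, was at 33.5 and 23.1 TPM. Both Xbp1 values were below both Atf4 values. The pseudokinase gene Trib3, a target of ATF4 and CHOP, was at 0.29 and 0.82 TPM on 10 and 15 counts, close to the limit of detection. Of the degradation factors, Sel1l, the adaptor of the HRD1 ubiquitin ligase, was at 65.8 and 55.3 TPM, and Edem1, a mannosidase-like lectin, at 61.8 and 43.2 TPM. Herpud1, a membrane protein that organises the same ligase, was at 20.1 and 13.1 TPM, below Sel1l and Edem1 in both libraries.

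In the heat shock role a constitutive set was high and the classical inducible genes were low. The role's median was 14.3 ± 0.573 TPM (SD, n = 2), and 10 of 11 genes reached 1 TPM in each library. Hspa8, the constitutive cytosolic HSP70, was at 297 and 226 TPM. The heat-inducible HSP70 genes Hspa1a and Hspa1b were at 2.82 and 1.10, and at 0.68 and 0.33 TPM. Both were below Hspa8 in each library by far more than the difference between the libraries.

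Of the cytosolic HSP90 genes, the constitutive Hsp90ab1 was at 64.6 and 72.0 TPM and the more inducible Hsp90aa1 at 25.5 and 30.7 TPM. The values of the pair did not overlap. The cytosolic J-domain genes also lay apart: Dnaja1 was at 55.0 and 50.9 TPM, and Dnajb1, the heat-inducible HSP40, at 1.98 and 1.59 TPM. The highest form of Dnaja1 was Dnaja1-204, annotated as a processed transcript and not as protein coding, with 32.7% and 32.6% of the gene's TPM. Its highest protein-coding form, Dnaja1-201, was at 10.63 and 9.99 TPM, still above both Dnajb1 values. The exchange factor Hsph1 was at 4.27 and 4.15 TPM.

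The mitochondrial chaperonin genes Hspd1 and Hspe1, which share the start region printed above, were at 14.8 and 13.9 and at 6.29 and 7.71 TPM. Hspd1 was the higher in both libraries in this quantification, and the lower in both in the second, at 5.59 and 10.3 TPM against 7.69 and 15.2 TPM for Hspe1. The regulator Hsf1 was at 22.1 and 16.7 TPM, between Hsp90aa1 and Hspd1 in the order of levels.

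Near-identical copies limit what is known of several heat shock genes. Of the distinct 31-base words in the transcripts of Hspa1a, 70.1% also occurred in another gene, 63.8% in Hspa1b. The share was 68.1% for Hspa1b, 53.1% for Hspd1, 51.5% for Hsp90aa1, 44.8% for Hspa8, 30.5% for Hspe1, 22.6% for Dnaja1 and 13.2% for Hsp90ab1. It was 0% for Canx, Pdia4, Dnajc3, Creld2, Xbp1, Atf4, Ern1, Herpud1, Sel1l, Ppp1r15a, Trib3 and Hsph1. Levels of the former genes depend on how reads shared between copies were divided, and the split between Hspa1a and Hspa1b in particular is uncertain. Hspd1 and Hspe1 also overlap each other at their starts on opposite strands, and Ppp1r15a overlaps the 3′ end of Tulp2 on the opposite strand. Tulp2 held 253 and 197 counts in the first quantification and 1660 and 1412 in the second. The labels and file headers do not state how strand was treated in counting.

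The libraries were then compared gene by gene, as log2 of replicate 2 over replicate 1 from scaled counts with a 95% exact counting interval. This compares 2 libraries and not 2 conditions. No gene of the module was over 2-fold higher in replicate 2, against 4.36% of 15557 genes compared, and 1 was over 2-fold higher in replicate 1, against 3.67%. That gene was Hspa1a, at 148 and 70.3 counts, with a log2 ratio of -1.02 (interval -1.45 to -0.60). With a trend on GC content taken out, chosen after the data were seen, its ratio was -0.73, under 2-fold, and with a prior count of 5 it was -0.97. In its near copy Hspa1b, at 33.7 and 19.7 counts, the ratio was -0.69 (-1.58 to 0.13), not distinguishable from 0 at this depth.

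Smaller differences were common. Beyond counting error, 16 of the 35 genes were higher in replicate 2 and 8 were lower, against 24.5% and 25.6% of all genes compared. Among the 32 genes whose scaled counts averaged at least 100, 46.9% were higher and 25% lower, against 28.5% and 33.4% of all genes with such counts. The median ratio over the module was 0.11, and over all genes 0.00. With library totals in place of the trimmed-mean scaling the split was 14 higher and 13 lower, where the median of all genes moved to -0.09. The second quantification gave 16 and 12, with the median of all genes at -0.05, and the GC trend taken out gave 15 and 5. Counted against the median of all genes under the same setting, 21 of the 35 genes were above it with either scaling, 20 in the second quantification and 22 with the GC trend taken out.

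**Figure D2:**
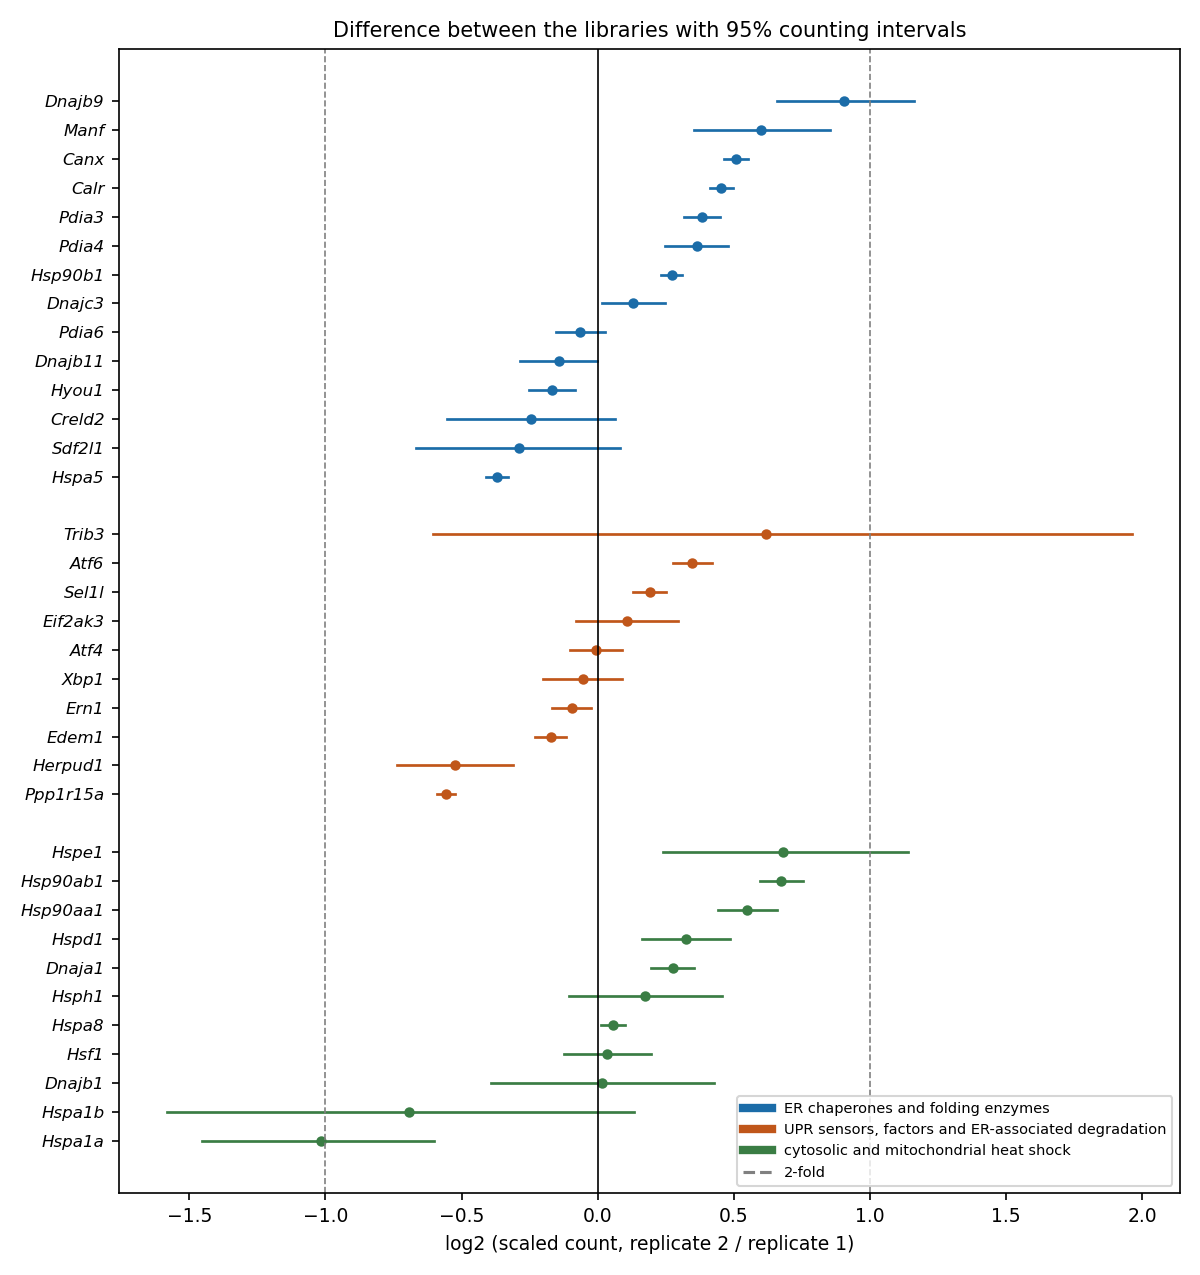
Log2 ratio of scaled counts, replicate 2 over replicate 1, for each of the 35 genes with its 95% counting interval; dashed lines mark 2-fold and the solid line marks equal counts. Dnajb9 lies furthest to the right at 0.91 and Hspa1a furthest to the left at -1.02.

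By role, 8 ER genes were higher in replicate 2 beyond counting error and 3 lower, 2 UPR genes were higher and 4 lower, and 6 heat shock genes were higher and 1 lower. These were 57.1% and 21.4%, 20% and 40%, and 54.5% and 9.09% of each role, against 24.5% and 25.6% of all genes compared. With library totals these splits were 7 and 6, 2 and 6, and 5 and 1, and with the GC trend taken out 7 and 1, 3 and 3, and 5 and 1. Under these settings the median of all genes moved to -0.09 and -0.01, and shares of all genes were not computed. The genes above the median of all genes numbered 8 of 14, 4 of 10 and 9 of 11 with the trimmed-mean scaling and with library totals, and 7, 6 and 9 with the GC trend taken out. The lectin chaperones and their isomerase were all higher in replicate 2, with ratios of 0.51 for Canx (0.46 to 0.55), 0.45 for Calr (0.41 to 0.50) and 0.38 for Pdia3 (0.31 to 0.45). Hspa5 went the other way at -0.37 (-0.41 to -0.33), as did its exchange factor Hyou1 at -0.17 (-0.25 to -0.08) and its J-domain partner Dnajb11 at -0.14 (-0.28 to 0.00). The other J-domain partners, Dnajc3 at 0.13 and Dnajb9 at 0.91, were higher in replicate 2. Hsp90b1 was at 0.27 (0.23 to 0.31).

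Among genes whose interval excluded 0, the largest ratio was that of Dnajb9, at 0.91 (0.66 to 1.16) on 205 and 369 counts. The chaperonin lid Hspe1 followed at 0.68 (0.24 to 1.14). Hsp90ab1 and Hsp90aa1 were at 0.67 (0.60 to 0.75) and 0.55 (0.44 to 0.66), and Manf at 0.60 (0.35 to 0.85). Of these 5, Dnajb9, Hspe1, Hsp90ab1 and Manf were over 1.5-fold higher in replicate 2. The share of all genes past 1.5-fold was not computed, so these 4 have no baseline. Trib3 was at 0.62 (-0.61 to 1.96) on 10 and 15 counts, not distinguishable from 0. The lowest ratios outside the HSP70 pair were those of Ppp1r15a at -0.56 (-0.59 to -0.52) and Herpud1 at -0.52 (-0.74 to -0.31). Xbp1 and Atf4 were at -0.06 (-0.20 to 0.09) and -0.01 (-0.10 to 0.09), not distinguishable from 0.

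The deposited transcript tables show which annotated forms carry these levels. The 35 genes have 174 annotated transcripts, of which 82 held 10% or more of their gene's TPM. For Hspa5 the main form was the protein-coding Hspa5-202, at 201 and 122 TPM. Hspa5-204, an annotated target of nonsense-mediated decay of only 477 bases, was at 57.0 and 5.49 TPM on 292 and 35.7 counts. The effective length of Hspa5 was 18.8% greater in replicate 2, and its log2 ratio was -0.96 on the TPM scale and -0.37 in counts. In the second quantification the gene's count ratio was -0.42, at levels of 131 and 134 TPM on a scale where the median log2 ratio of all genes was 0.57.

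Ppp1r15a also had a short form with a high TPM on few counts. Ppp1r15a-203, of 389 bases, was at 145 and 61.9 TPM on only 503 and 277 counts, next to 249 and 124 TPM for the main form Ppp1r15a-202. The gene's ratio was -0.97 on the TPM scale and -0.56 in counts, and -0.57 in the counts of the second quantification. There its level was 152 TPM in both libraries, on a TPM scale where the median log2 ratio of all genes was 0.57. For Ern1, the full-length Ern1-201 of 22 exons was at 23.1 and 18.1 TPM, and the short Ern1-203 at 4.22 and 0.43 TPM. For Hsf1, the protein-coding Hsf1-205 held 189 counts in replicate 1 and 0 in replicate 2, whereas the gene as a whole differed by 0.04 on the log2 scale.

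**Figure D3:**
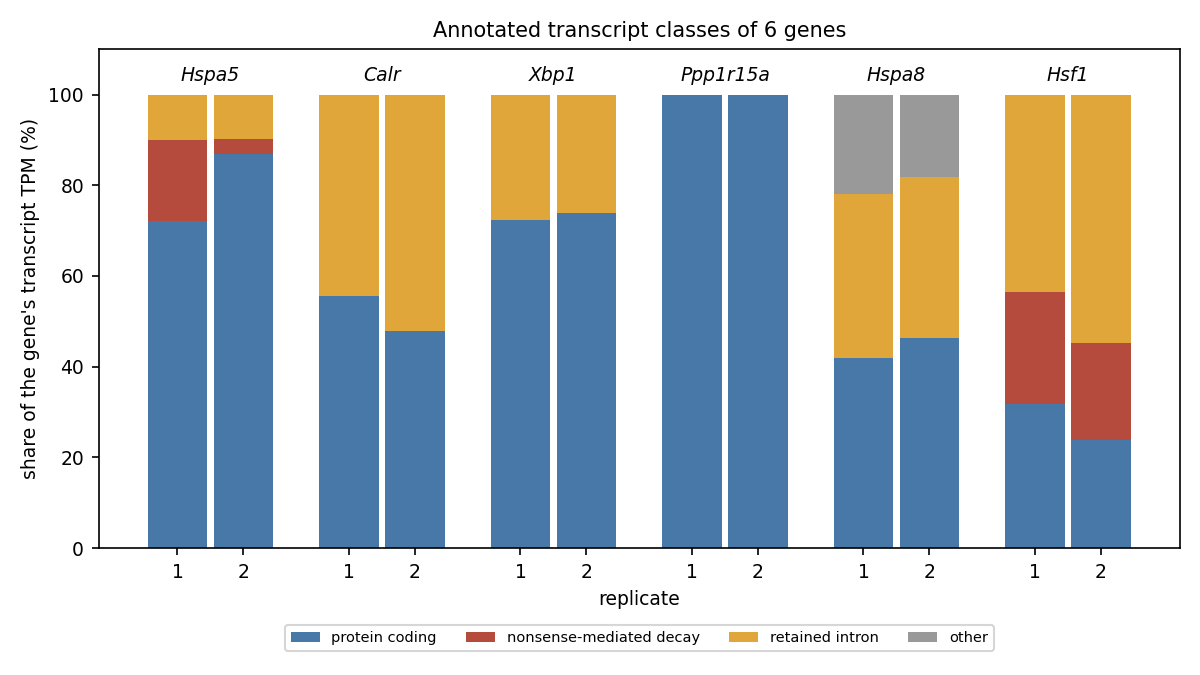
Share of each gene's transcript TPM (%) by annotated transcript class for Hspa5, Calr, Xbp1, Ppp1r15a, Hspa8 and Hsf1, 1 bar per library. Nonsense-mediated decay forms held 17.9% of Hspa5 in replicate 1 and 3.36% in replicate 2, and all transcripts of Ppp1r15a are annotated as protein coding.

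Xbp1 is the gene whose splicing reads out IRE1 activity. Its 4 annotated transcripts were the protein-coding Xbp1-201, at 15.1 and 12.9 TPM, Xbp1-203, at 5.98 and 2.87 TPM, and Xbp1-204, at 3.12 and 1.35 TPM, and the retained-intron form Xbp1-202, at 9.23 and 6.02 TPM. Xbp1-201 led in both libraries. The shortest intron in any of these models is 300 bases long, so the short intron that IRE1 removes is in none of them, and spliced and unspliced XBP1 mRNA could not be separated from these tables.

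Because the RNA is nucleoplasmic, retained-intron transcripts were set against each gene's summed transcript TPM for the 20 genes that have one annotated and averaged at least 1 TPM. The median share was 26.6% ± 0.894 (SD, n = 2), against 32.5% ± 0.671 over 6517 genes with such a share. By role it was 10.3% ± 0.528 for 7 ER genes, 27.8% ± 0.269 for 7 UPR genes and 29.3% ± 5.39 for 6 heat shock genes. These shares rest on annotated models, and a share of expected counts in place of TPM gave a median of 10.6%, against 19.6% over all such genes. In the second quantification the median over all such genes was 36.5%, and medians by role were not computed. There the ER genes ran from 8.51% (Pdia3) to 51.4% (Calr) and the UPR genes from 27.0% (Atf6) to 50.6% (Sel1l). Of the heat shock genes, Hsp90aa1 (57.3%), Hspa8 (46.1%), Hsf1 (45.8%) and Hsph1 (37.0%) lay above 36.5%, and Hsp90ab1 (26.7%) and Hspe1 (5.07%) below.

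Within the ER role, Calr stood apart at 44.3% and 52.2%, most of it in Calr-204, at 107 and 160 TPM. Manf followed at 33.2% and 29.2%. The other 5 lay between 2.52% and 14.2%: Pdia6 was at 9.96% and 14.2%, Hyou1 at 9.26% and 10.7%, Hspa5 at 10.1% and 9.69%, Hsp90b1 at 8.61% and 6.38%, and Pdia3 at 2.52% and 5.36%. These 5 did not overlap with Calr or Manf.

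Among the UPR genes, Herpud1 was at 36.3% and 48.0%, Sel1l at 36.9% and 32.2% and Atf4 at 34.4% and 32.6%. Eif2ak3, Xbp1, Atf6 and Edem1 lay between 21.7% and 28.0% in both libraries. As shares of expected counts the 7 UPR genes ran from 2.47% for Edem1 to 37.5% for Atf4, and the 7 ER genes from 0.855% for Pdia3 to 25.5% for Calr. In the heat shock role, Hsf1 was at 43.6% and 54.7% and Hspa8 at 36.1% and 35.6%. Hsph1 (42.1% and 23.1%) and Hsp90ab1 (30.2% and 19.0%) differed most between the libraries, Hsp90aa1 was at 22.5% and 28.0%, and Hspe1 at 12.1% and 15.8%.

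**Figure D4:**
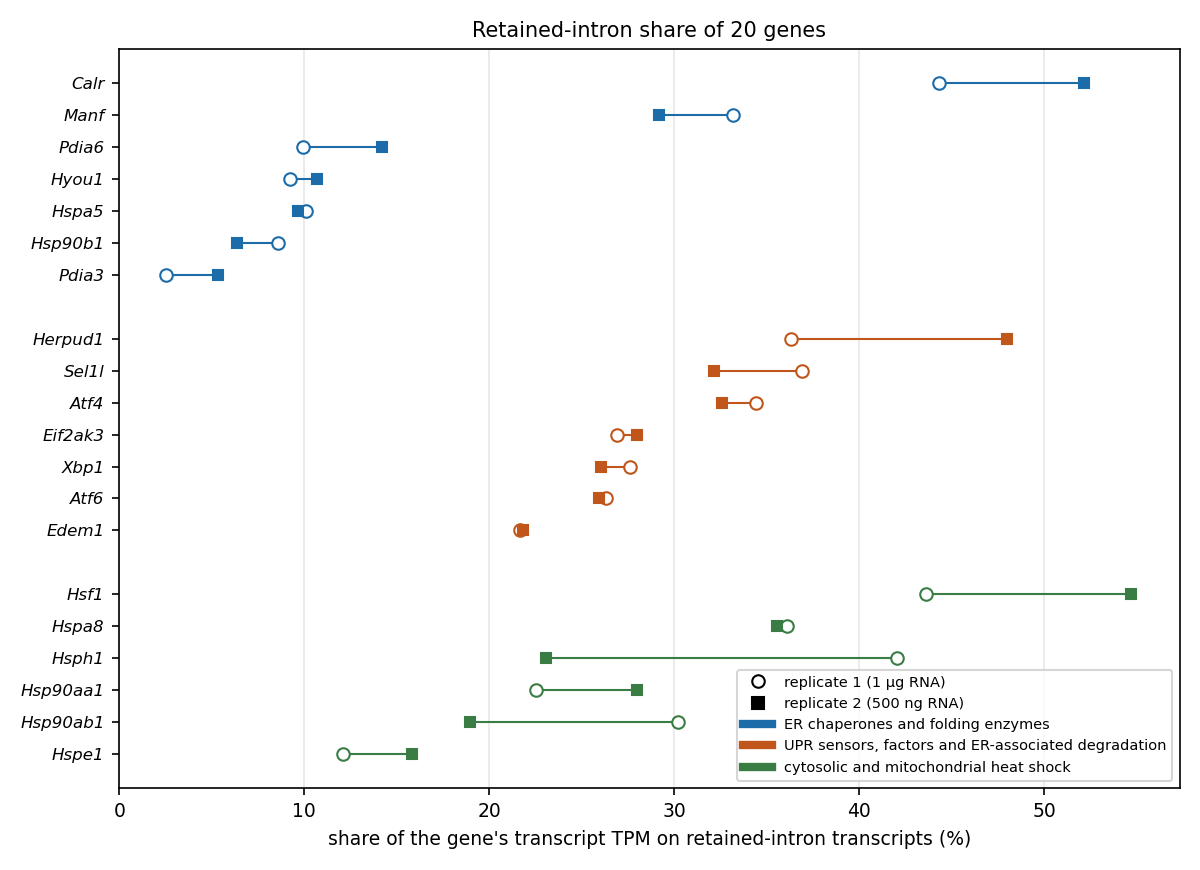
Percentage of transcript TPM that annotated retained-intron forms hold for the 20 genes with such a transcript, in replicate 1 (open circles) and replicate 2 (filled squares), grouped by role. Pdia3 is lowest at 2.52% and 5.36%, and Hsf1 and Calr reach 54.7% and 52.2% in replicate 2.

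The second deposited quantification, made per transcript and summed here by gene, gave a lower mean TPM for 34 of the 35 genes. The exception was Hspe1, at 7.69 and 15.2 TPM against 6.29 and 7.71 TPM in the first. After centring on the median of all genes, Hspe1 was also the only gene of the module more than 2-fold apart between the quantifications, at a log2 ratio of 1.24 in replicate 1 and 1.01 in replicate 2. On this TPM scale 34 of 35 genes were higher in replicate 2, all but Hspa1a, whereas on the first TPM scale 10 were. The median over all genes compared moved as well, by 0.57 and -0.35 on the log2 scale, so the direction of a TPM difference between these libraries depends on the quantification.

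**Figure D5:**
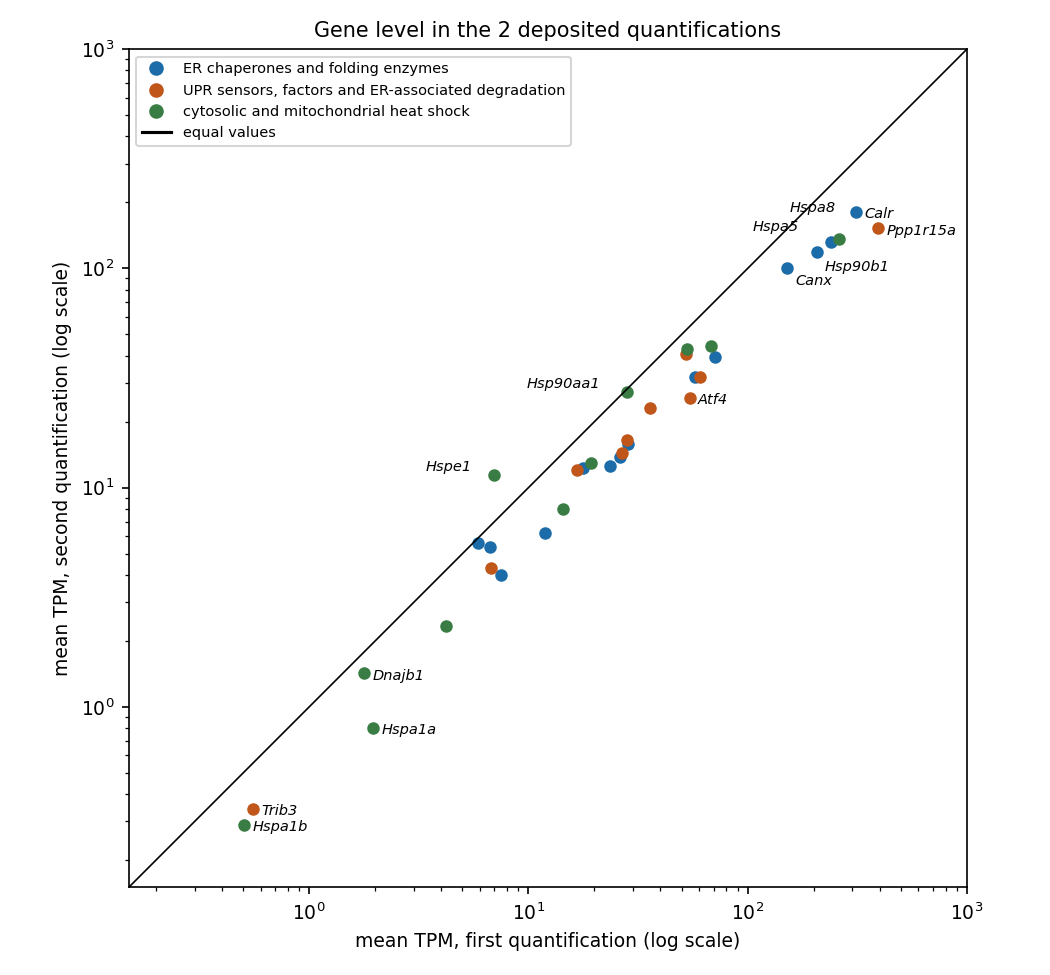
Mean TPM of both libraries in the first (x axis) and second (y axis) deposited quantification, log axes, 1 point per gene; the line marks equal values. Hspe1 is the only point above the line.

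Other genes of the pathways, from lists written for this tissue, had median levels of 7.21 to 16.3 TPM, list by list. The counts at 1 TPM below stand against 44.9% of all nuclear-encoded protein-coding genes. Of 20 further ER folding genes, 18 were at 1 TPM or more in both libraries, from Fkbp11 at 0.14 and 0.32 TPM to Erp29 at 68.6 and 47.3 TPM. All 18 further genes of ER-associated degradation were, from Derl3 at 3.26 and 3.55 TPM to the lectin Os9 at 59.5 and 57.1 TPM. None of either list was over 2-fold apart between libraries.

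Of 23 further UPR signalling genes 18 were at 1 TPM or more in both libraries. Slc3a2, an amino acid transporter subunit and target of ATF4, was highest at 163 and 147 TPM, and Chac1, another target of ATF4, lowest at 0.11 and 0.09 TPM. None was over 2-fold apart. Of 25 further cytosolic heat shock genes 19 were at 1 TPM or more, with Dnajb6 highest at 109 and 68.4 TPM and the small heat shock gene Hspb8 listed at 0 in both. Hspa2 was over 2-fold higher in replicate 2, at 24 and 51 counts and a log2 ratio of 1.13 (0.42 to 1.91). All 9 further mitochondrial chaperone and protease genes were at 1 TPM or more, from Grpel1 at 1.34 and 1.49 TPM to the protease Htra2 at 45.4 and 20.3 TPM.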

How the data were processed

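Per the file headers, the authors deposited for each library gene and transcript tables with expected counts, FPKM, TPM and a posterior mean of TPM, in the column names RSEM uses, and a second transcript table with estimated counts and TPM in those of kallisto. The labels name mm10, and the transcript names match GENCODE M21. Neither headers nor labels give program versions or settings. The members, the lists and their rules were chosen with earlier results of these data known.

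Expected counts were rounded and scaled with TMM factors (edgeR 4.0.16). Ratios used a prior count of 0.5 and exact Clopper-Pearson intervals, which cover counting error only. Genes with a mean scaled count of at least 10 were compared (15557), and a gene counted as apart past 2-fold with its interval clear of 0. With 1 group, no test between conditions was possible, and SDs measure the spread of 2 libraries. Simulated data were used to test the ratio computation. Named were all members, the highest and lowest gene of each further list by mean TPM, and the highest of each marker list with a member at 1 TPM. Hspa2 was named after its value was seen. Ddit3 matched 2 identifiers and was left out of the lists. Alternatives included DESeq2 1.42.0 size factors. Promoter sequences are from RefSeq.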

Additional observations from a re-analysis of the deposited data

How the results depend on the processing

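The median TPM of the 35 genes, 25.3, became 28.6 in FPKM, 14.6 in the second quantification and 102 after rescaling over nuclear protein-coding genes. Their median log2 ratio between libraries, 0.11, became -0.29 as a ratio of TPM + 0.1, where the median of all genes moved to -0.35. It stayed between 0.01 and 0.13 with DESeq2 size factors, library totals, the second quantification, a prior count of 5, a minimum of 100 scaled counts, or a GC trend taken out. All 35 genes passed the minimum of 10 scaled counts, so leaving that minimum out could not change the value. The count of genes over 2-fold apart was 1, and 0 with the GC trend taken out, an alternative added after the data were seen. At 1.5-fold it was 5, a fold at which no share of all genes was computed. The median retained-intron share, 26.6%, became 10.6% as a share of expected counts and 33.4% in the second quantification. The medians over all such genes were 32.5%, 19.6% and 36.5% in the same order. Without replicate 1 or 2 the median TPM was 23.8 to 26.8, the number of genes reaching 1 TPM in each library 33, and the retained-intron share 26.0% to 27.3%. Of the 35 single-gene ratios, 35 moved by less than their counting error with DESeq2 size factors and with a prior count of 5, 23 with the GC trend taken out, 21 in the second quantification, 19 with library totals and 9 as TPM ratios. Hspa1a was lower in replicate 2 under all 6. The causes of these changes were not tested. No paired analysis was possible because there was 1 group. Counts of 10 and 15 (Trib3) and 33.7 and 19.7 (Hspa1b) limit what can be said of those genes.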

Other observations

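The gene for CHOP, Ddit3, a transcription factor downstream of ATF4, was annotated under 2 identifiers and so stood outside the lists. One held 567 and 535 counts, at 42.3 and 31.1 TPM, with a log2 ratio between libraries of -0.02 (-0.20 to 0.15). The other was listed at 0 in both libraries. Trib3, which CHOP and ATF4 are known to activate, was at 10 and 15 counts in the same libraries.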
